A study of Homo sapiens with 7 samples.

Results

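HSC-3 cells, a line from a human oral squamous cell carcinoma, were heated at 44 °C or at 42 °C and compared after 6 h of recovery. The comparison takes 2 of the 7 arrays of the study, 1 array per temperature, chosen by the temperature and recovery time that their labels give. Cells of the 44 °C group were held at 44 °C for 90 min and then returned to 37 °C for 6 h, cells of the 42 °C group had the same schedule at 42 °C, and the control array came from unheated cells at 37 °C. The remaining 4 arrays are the pairs of heated cells at 0 h and at 12 h of recovery. All groups share the cell line, and 5 µg of total RNA was amplified from the 3′ end, labelled with biotin and hybridised to an Affymetrix Human Genome U133 Plus 2.0 array. Each group is 1 array with no replicate, so no difference below was tested, and every fold change compares single libraries.

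Cells meet heat with the heat shock response: the transcription factor HSF1 forms trimers, binds inverted repeats of GAA called heat shock elements, and switches on chaperones that refold or hold unfolded proteins. HSP70 proteins do the refolding with HSP40 cochaperones, HSP90 proteins mature client kinases and receptors, and small heat shock proteins hold unfolded clients without using ATP. Stress also switches on immediate early genes, whose short-lived messages code for transcription factors such as FOS and EGR1 and for phosphatases that shut off MAP kinases.

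The elements are shown first for 4 chaperone genes, picked because they differed between the temperatures and hold a match. The 250 bases before the RefSeq gene start in GRCh38.p14 are written in the direction of the gene. Capitals mark the searched cores GAANNTTC and TTCNNGAA on either strand, which overlap in part in HSPA6. HSPA6, at chr1:161524290-161524539 on the plus strand, has 3 matches that begin 180, 74 and 69 bases before the start. DNAJB1 holds them in 1 of its 3 RefSeq windows, at chr19:14518398-14518647 on the minus strand, with 2 matches at 77 and 47 bases before the start. HSPA1L, at chr6:31815284-31815533 on the minus strand, has 1 match at 161 bases, and HSPB8, at chr12:119178681-119178930 on the plus strand, has 1 at 88 bases. The first 3 genes were higher at 44 °C and HSPB8 was lower. HSPB1 and HSPA4L, which were also lower, hold a match and are not printed. HSPA2, which was higher, has a window without one.
HSPA6: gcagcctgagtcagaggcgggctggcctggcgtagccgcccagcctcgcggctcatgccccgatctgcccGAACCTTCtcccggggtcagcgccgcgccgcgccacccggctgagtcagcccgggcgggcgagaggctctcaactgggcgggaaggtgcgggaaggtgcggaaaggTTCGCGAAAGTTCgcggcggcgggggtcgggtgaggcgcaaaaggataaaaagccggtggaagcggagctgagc
DNAJB1: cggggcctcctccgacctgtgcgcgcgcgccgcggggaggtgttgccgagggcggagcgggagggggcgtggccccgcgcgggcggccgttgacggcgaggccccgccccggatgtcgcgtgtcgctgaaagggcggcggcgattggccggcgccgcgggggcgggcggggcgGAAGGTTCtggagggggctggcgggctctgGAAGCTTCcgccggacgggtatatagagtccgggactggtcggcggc
HSPA1L: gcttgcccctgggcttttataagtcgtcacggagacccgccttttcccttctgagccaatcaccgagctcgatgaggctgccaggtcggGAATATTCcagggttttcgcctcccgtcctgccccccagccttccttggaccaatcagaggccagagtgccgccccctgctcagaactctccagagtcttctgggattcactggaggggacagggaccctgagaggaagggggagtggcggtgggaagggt
HSPB8: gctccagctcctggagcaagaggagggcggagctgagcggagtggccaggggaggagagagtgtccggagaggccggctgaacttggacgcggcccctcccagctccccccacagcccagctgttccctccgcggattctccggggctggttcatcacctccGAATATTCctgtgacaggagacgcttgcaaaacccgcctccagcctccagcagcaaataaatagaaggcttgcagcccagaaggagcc

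A core of this kind lies in 11.6% of the 35116 windows of this length and, since a gene may have several windows, in at least 1 window of 14.0% of genes. It lies in 3 of the 8 HSP70 and HSP110 genes with a window and in 5 of the 11 HSP40 genes. Among the genes that rose at 44 °C, 12.8% held one, among those that fell 11.8%, and among all measured genes 12.1%. Windows with the core therefore belonged to genes that rose, to genes that fell (HSPB1, HSPA4L and HSPB8) and to HSP90AA1, which did neither. A match is a run of letters and not a mapped binding site.

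The values are array intensities on a linear scale as deposited, 1 per probe set, with the level of each array set in a way the sources used here do not give. A floor of 21.4, the pooled median of all 7 arrays, was put under every value before log2 was taken. It was reached by 48.0% of probe sets at 44 °C and 49.7% at 42 °C, and 12819 of 19775 genes reached it on either array of the pair. The median measured gene differed by -0.18 on the log2 scale as deposited, by 0.09 after quantile normalization and by 0.22 after each array was centred on the probe sets above the floor on all arrays. The 9 hybridisation control probe sets had a median difference of 0.20 as deposited and 0.46 after quantile normalization. For the 12 poly-A spike control probe sets it was -0.01 and 0.40. Which scaling best matches the RNA level of the cells was not tested. Genes below are said to have risen or fallen at 44 °C only if they differed by at least 2-fold from 42 °C under all 3 scalings. Different probe sets of the same gene disagreed with an SD of 0.40 log2 units where bright (at least 4 times the floor) and 0.54 where dimmer. These share 1 RNA and measure no biological spread. Squamous markers were bright on both arrays for each of the 6 markers with a value, and their summed intensity was 34863 at 44 °C and 34470 at 42 °C. Fibroblast markers summed to 414 at 44 °C and 265 at 42 °C, with 4 and 2 of 7 above the floor and most of the sum from COL1A1 (307 at 44 °C and 204 at 42 °C). Endothelial markers summed to 58.9 at 44 °C and 76.4 at 42 °C, with PECAM1 alone above the floor on each array. Leukocyte markers summed to 99.6 at 44 °C and 86.6 at 42 °C, with 2 of the 5 that have a value above the floor on each array and PTPRC below it on both.

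At 44 °C, 258 genes rose (2.01% of measured genes) and 616 fell (4.81%) relative to 42 °C. The largest rises exceeded the largest falls: ID2 was 59.9-fold higher, HSPA6 29.0-fold, FOS 25.3-fold and RASD1 22.1-fold. The falls were more numerous, led by SNAPC4 at 15.1-fold lower and ZNF92 at 10.8-fold. At 4-fold, 30 genes were higher and 131 lower as deposited, and 38 higher and 42 lower after quantile normalization. The balance moved with the scaling. As deposited, 258 genes were at least 2-fold higher and 1668 (13.0%) lower, so that 13.4% of the genes past the threshold were higher at 44 °C. That share was 46.9% after quantile normalization (628 or 4.90% of measured genes higher, 711 or 5.55% lower) and 57.9% after the median shift (851 or 6.64% higher, 620 or 4.84% lower). Of 8998 bright genes, 115 rose (1.28%) and 541 fell (6.01%). Fewer cells of a kind and less RNA per cell cannot be told apart in such bulk RNA.

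**Figure D1:**
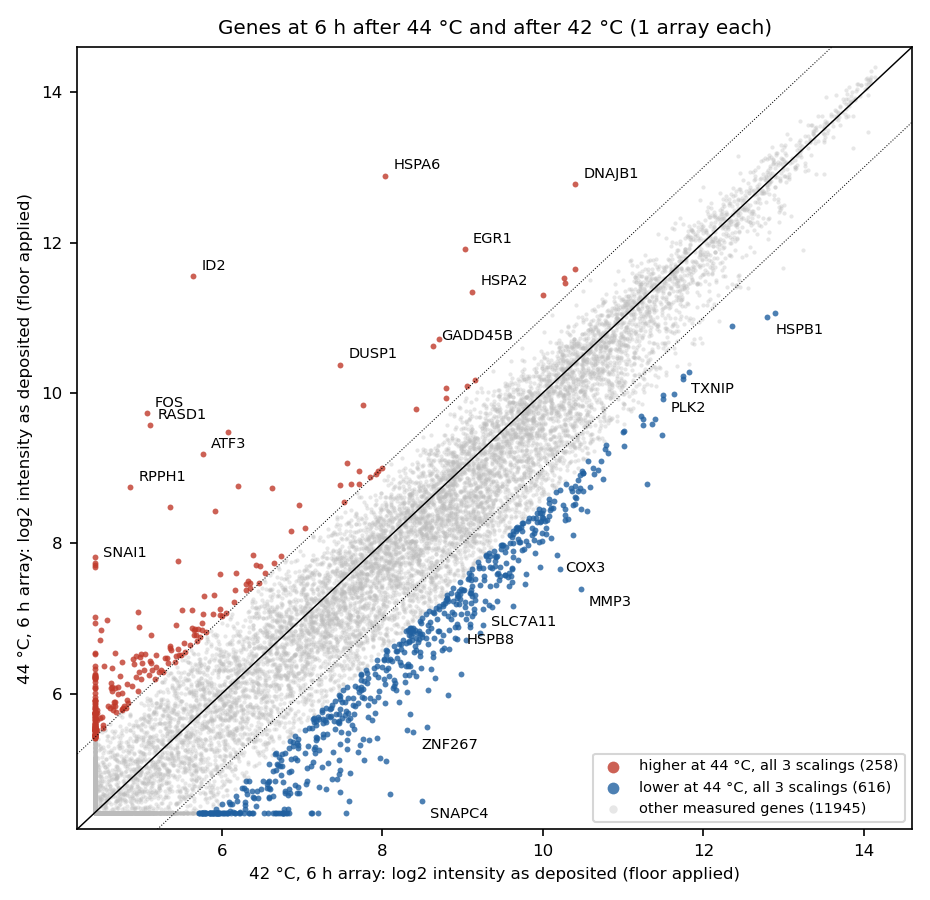
Each point is 1 measured gene, with its log2 intensity as deposited on the 42 °C 6 h array (x axis) and on the 44 °C 6 h array (y axis), values under the floor set to it. The solid line is equality and the dotted lines are 2-fold, red genes rose (258) and blue genes fell (616) under all 3 scalings, and ID2, HSPA6 and FOS lie farthest above the line.

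HSPA6 and DNAJB1, inducible chaperones, were far higher at 44 °C than at 42 °C. HSPA6, the strictly stress-induced HSP70, had an intensity of 7596 at 44 °C against 262 at 42 °C, with 4.82 on the control array, which is under the floor. HSPA6 was 29.0-fold higher at 44 °C (4.86 log2 units as deposited, 5.08 after quantile normalization), and both of its probe sets, 4.86 and 5.22, gave the same direction. DNAJB1, the HSP40 that delivers clients to HSP70, had 7004 at 44 °C against 1354 at 42 °C and 881 in the control, a 5.17-fold rise. The level of DNAJB1 at 44 °C was nearly the same on all 3 arrays of that temperature, with 7110 at 0 h, 7004 at 6 h and 6989 at 12 h, whereas at 42 °C it was 9949, 1354 and 1299.

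Of the 9 measured HSP70 and HSP110 genes, 3 rose and 1 fell, where 2.01% of all measured genes rose and 4.81% fell. The HSP70 genes HSPA1A, HSPA1B and HSPA8 have no probe set that lists 1 gene only, so they have no value here. HSPA1L, an HSP70 gene best known from testis, rose 5.71-fold, with 345 at 44 °C against 60.4 at 42 °C and 36.1 in the control. HSPA2, another HSP70 with high expression in testis, rose 4.69-fold, with 2605 at 44 °C against 555 at 42 °C and 497 in the control. HSPA4L, an HSP110-type exchange factor that resets HSP70, fell 3.09-fold, with 355 at 44 °C against 1095 at 42 °C and 366 in the control. For HSPA2 the 42 °C array thus lay near the control, and for HSPA4L the 44 °C array did, while HSPA1L at 42 °C lay above the control. The family's HSPH1, an exchange factor, had 7706 at 44 °C and 11590 at 42 °C, both above 4976 in the control, a difference of -0.59, while its 3 probe sets ran from -1.87 to -0.59. HSPA13, an HSP70 of the endoplasmic reticulum, had 559 at 44 °C and 1489 at 42 °C, past 2-fold as deposited (-1.41) and after quantile normalization (-1.09) but not after the median shift. Messages of this family are alike in sequence, and hybridisation of 1 gene's RNA to another's probes was not tested.

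The small heat shock proteins split. CRYAB, alpha B crystallin, rose 4.96-fold, with 218 at 44 °C against 44.0 at 42 °C and 28.6 in the control. HSPB1, the abundant HSP27, fell 3.47-fold, with 2052 at 44 °C against 7115 at 42 °C and 1116 in the control. HSPB8, a partner of BAG3 in the disposal of damaged proteins, fell 4.17-fold, with 118 at 44 °C against 491 at 42 °C and 80.8 in the control. A second probe set of HSPB8 read 0.57 the other way. HSPB1 and HSPB8 were therefore above the control at either temperature but higher after the milder heat, while the other 3 measured members (HSPB7, HSPB9 and CRYAA) stayed within 0.15 log2 units as deposited, at levels about the floor.

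The HSP90 group had no member past the threshold among 11 measured, and with 2.01% and 4.81% over all genes nothing is read from that count. HSP90AA1, the inducible HSP90, had 16446 at 44 °C, 14838 at 42 °C and 13220 in the control. BAG3, which links HSP70 to small heat shock proteins, had 4378 at 44 °C, 5070 at 42 °C and 1816 in the control, so it was above the control at either temperature and differed by -0.21 between them. HSF1, the factor itself, had 302 at 44 °C and 298 at 42 °C. Among the 11 HSP40 genes DNAJB1 alone rose and none fell. The 12 mitochondrial chaperones and proteases and the 7 subunits of the cytosolic chaperonin TRiC had no rise and no fall either, and nothing is read from counts in lists of this size.

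**Figure D2:**
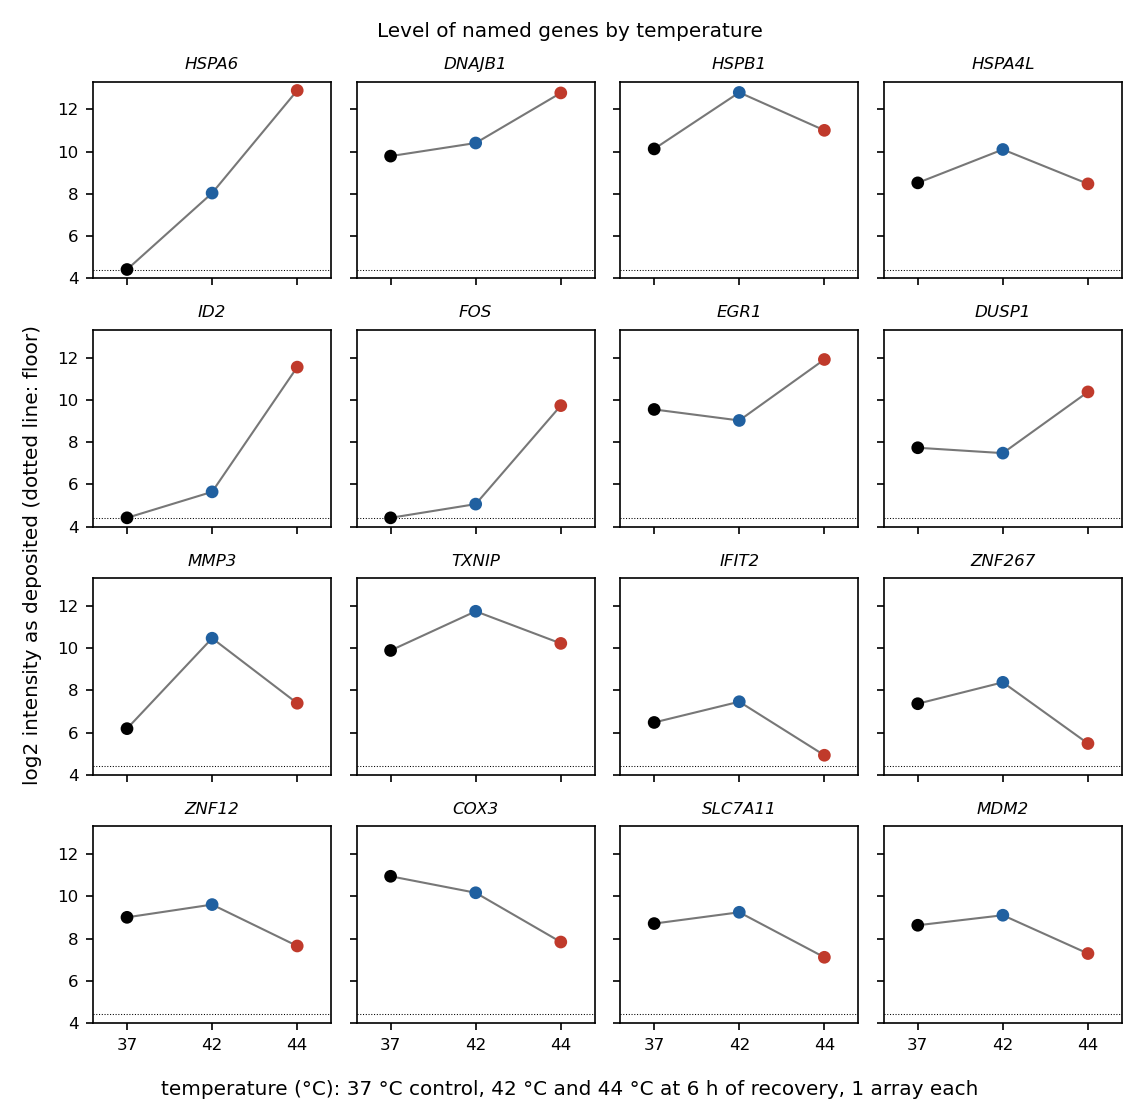
The log2 intensity as deposited of 16 named genes is plotted against temperature, with 1 array each for the 37 °C control (black), 42 °C at 6 h (blue) and 44 °C at 6 h (red), and a dotted line at the floor. HSPA6, ID2 and FOS are highest at 44 °C, whereas HSPB1, MMP3, TXNIP and IFIT2 peak at 42 °C.

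Of the 42 gene lists, that of immediate early genes had the most rises by count. Of 22 measured, 8 rose (FOS, FOSB, EGR1, EGR3, ATF3, DUSP1, KLF4 and NR4A1) and 1 fell (ZFP36), against 2.01% and 4.81% of all measured genes. FOSB, EGR3 and NR4A1 were under the floor at 42 °C. IER3 (3816 at 44 °C against 9667 at 42 °C) and CCN1 (2682 at 44 °C against 6050 at 42 °C) went the other way. Both were past 2-fold lower as deposited and after quantile normalization, but not under all 3 scalings. The list's median stood 0.45 above that of all genes after quantile normalization. The lists were chosen with earlier results of these data known. FOS, the AP-1 subunit that marks acute signalling, had 848 at 44 °C against 33.5 at 42 °C and 3.86 in the control, a 25.3-fold rise. FOSB, its close relative, had 226 at 44 °C against 1.74 at 42 °C, under the floor, and so was at least 10.6-fold higher. EGR1, a zinc finger activator, had 3849 at 44 °C against 521 at 42 °C and 747 in the control, a 7.39-fold rise. JUN, the partner of FOS, showed no such difference, with 2047 at 44 °C, 1935 at 42 °C and 1134 in the control.

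EGR1 is a textbook target of serum response factor, which binds CArG boxes. Its upstream window was chosen for display after its values were seen and is printed with the searched decamer, CC, 6 bases of A or T, then GG, in capitals. It lies at chr5:138465229-138465478 on the plus strand of GRCh38.p14, with 2 matches that begin 105 and 83 bases before the start. Such a match lies in 1.16% of the 35116 windows and in at least 1 window of 1.44% of genes. It lies in 2 of the 17 immediate early genes with a window. Among the genes that rose at 44 °C, 1.06% held one, among those that fell 1.2%, and among all measured genes 1.44%.
EGR1: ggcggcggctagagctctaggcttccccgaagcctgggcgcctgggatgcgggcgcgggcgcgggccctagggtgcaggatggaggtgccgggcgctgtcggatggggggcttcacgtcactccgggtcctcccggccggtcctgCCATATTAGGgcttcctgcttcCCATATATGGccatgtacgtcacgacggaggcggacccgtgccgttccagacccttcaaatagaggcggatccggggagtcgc

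ATF3, a stress-induced repressor of the CREB family, had 582 at 44 °C against 54.4 at 42 °C and 76.6 in the control, a 10.7-fold rise. Its 3 probe sets ranged from 0.82 to 3.42 log2 units, all positive. DUSP1, the phosphatase that shuts off p38 and JNK kinases, had 1329 at 44 °C against 178 at 42 °C and 213 in the control, a 7.45-fold rise with 3 probe sets from 0.87 to 2.90. DUSP1 was the sole riser among the 9 measured MAP kinase phosphatases, where 2.01% of all measured genes rose. KLF4, an epithelial transcription factor, had 1687 at 44 °C against 418 at 42 °C and 556 in the control. ZFP36, which triggers decay of AU-rich messages, had 109 at 44 °C against 328 at 42 °C and 296 in the control. For EGR1, ATF3 and DUSP1 the 42 °C array lay below the control, whereas for FOS it lay just above the floor with the control under it.

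The inhibitors of differentiation and their relatives included the largest rise. ID2, which blocks basic helix-loop-helix factors by pairing with them, had 2996 at 44 °C against 50.1 at 42 °C and 4.46 in the control. The 59.9-fold difference of ID2 was seen by both of its probe sets, at 5.00 and 5.90 log2 units. ID1, with 426 at 44 °C and 397 at 42 °C, and ID3, with 83.3 at 44 °C and 106 at 42 °C, did not share it. HES1, a repressor downstream of NOTCH, rose 2.94-fold, with 365 at 44 °C against 124 at 42 °C and 162 in the control, but its other probe set read 0.27. BHLHE41, a clock repressor, rose 2.23-fold, but its other probe set read -0.13.

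Of the 5 GADD45 and polo kinase genes, 3 rose and 1 fell, against 2.01% and 4.81% of all measured genes. GADD45B, a stress sensor upstream of p38 and JNK, had 1571 at 44 °C against 397 at 42 °C and 346 in the control, a 3.96-fold rise, with 4 probe sets from 0.38 to 2.27. GADD45G rose 5.33-fold, with 126 at 44 °C against 23.7 at 42 °C, while GADD45A had 2840 at 44 °C and 2281 at 42 °C. PLK3, a stress kinase, rose 2.63-fold (84.9 at 44 °C against 32.2 at 42 °C) with its other probe set at -0.49. PLK2, a related kinase that p53 induces, fell 2.86-fold, with 1006 at 44 °C against 2880 at 42 °C and 1684 in the control. The family was thus split by member.

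Other large rises fell outside these groups. RASD1, a Ras-like GTPase induced by dexamethasone, had 759 at 44 °C against 34.4 at 42 °C and 10.4 in the control. SNAI1, the repressor of E-cadherin, had 214 at 44 °C against 4.34 at 42 °C and was at least 10.0-fold higher. TENT5C, a poly(A) polymerase, had 358 at 44 °C against 40.9 at 42 °C and 18.1 in the control, an 8.75-fold rise. IER5L, a relative of the immediate early gene IER5, rose 10.6-fold (712 at 44 °C against 67.3 at 42 °C), but a second probe set read 0.22. CACNA1G, a calcium channel gene, was at least 9.65-fold higher (206 at 44 °C against 5.88 at 42 °C), with 4 probe sets spread from 0.13 to 3.27. HBEGF, a ligand of the EGF receptor, rose 2.45-fold, with 2521 at 44 °C against 1027 at 42 °C and 1496 in the control. CCNE1 (102 at 44 °C against 46.0 at 42 °C) and the clock gene TEF (139 at 44 °C against 62.9 at 42 °C) each rose 2.22-fold at low intensities. LIF, a cytokine with 49.3 at 44 °C and a value below the floor at 42 °C, was at least 2.31-fold higher, a difference of 1.21 log2 units that shrank to 0.21 with the floor at 2 times the pooled median.

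RPPH1, the RNA of ribonuclease P, rose 14.9-fold, with 431 at 44 °C against 29.0 at 42 °C and 27.4 in the control. It is made by RNA polymerase III and carries no poly(A) tail. Ribosomal RNA control probe sets moved with it. The 5′ probe set for 28S rRNA had 17635 at 44 °C against 755 at 42 °C and 463 in the control (4.54 log2 units), while its M and 3′ probe sets read 1.04 and 0.88, the 3′ one with its 42 °C value under the floor. The 3 probe sets for 18S rRNA read 0.61 to 1.47 log2 units higher. Actin control probe sets read 0.14 to 0.19 and GAPDH ones 0.02 to 0.07, with little difference between the 3′ and 5′ ends. The part of non-polyadenylated RNA in these values was not tested. Clustered histone genes, whose messages also lack a poly(A) tail, had 3 rises (H2AC17, H3C2 and H3C7) and no fall among 35 measured. After quantile normalization 4 were below 0 and their median was 0.52. Over all measured genes 2.01% rose and 4.81% fell, and after quantile normalization 55.9% were above 0 with a median of 0.09.

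Zinc finger genes made up a large share of the falls. They were 16.6% of the genes that fell and 2.71% of all measured genes. Of 348 measured genes with a ZNF symbol, 102 fell (29.3%, against 4.81% of all measured genes) and 4 rose, and 266 (76.4%) were below 0 after quantile normalization. Many of these genes code for DNA-binding repressors with a KRAB domain. Among the 220 bright ZNF genes 88 fell (40.0%). The family median after quantile normalization was -0.61. Set against the control array, the family median was -0.36 at 44 °C and 0.27 at 42 °C, each taken separately over the genes. ZNF267 had 44.9 at 44 °C against 334 at 42 °C and 166 in the control, a 7.44-fold fall. ZNF559 had 63.5 at 44 °C against 453 at 42 °C and 121 in the control, and ZNF92 had 25.3 at 44 °C against 273 at 42 °C, although a second probe set of ZNF92 read -0.16. ZNF12, with 4 probe sets from -1.96 to -1.20, had 202 at 44 °C against 785 at 42 °C and 517 in the control. ZNF140 (173 at 44 °C against 649 at 42 °C) and ZNF224 (25.7 at 44 °C against 124 at 42 °C) fell likewise. In the 6 ZNF genes named here the control array lay between the temperatures.

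Of 37 measured ZBTB genes, which pair zinc fingers with a BTB domain, 6 fell, none rose and 30 were below 0 after quantile normalization. Over all measured genes 4.81% fell, 2.01% rose and 55.9% were above 0 on that scale. ZBTB6 had 34.5 at 44 °C against 264 at 42 °C and 105 in the control, a 7.64-fold fall. ZBTB38, which binds methylated DNA, had 761 at 44 °C against 2431 at 42 °C and 1473 in the control. Many ZNF genes sit in clusters on chromosome 19. Of the 62 genes on chromosome 19 that fell, 50 were ZNF genes. Without ZNF genes, chromosome 19 held 2.33% of the genes that fell, 12.6% of those that rose and 5.65% of all measured genes.

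**Figure D3:**
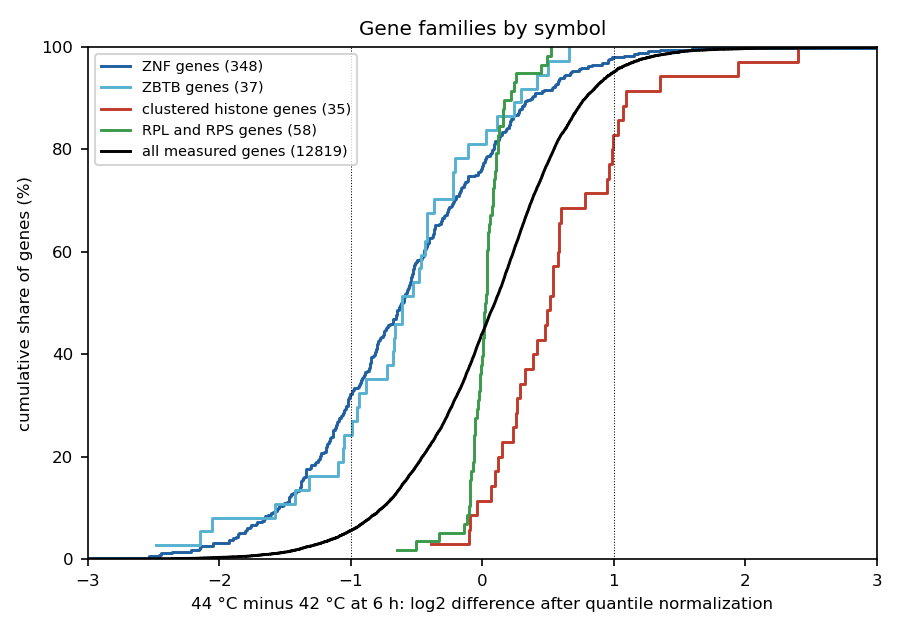
The cumulative share of genes (%) is drawn against the 44 °C minus 42 °C difference at 6 h, in log2 units after quantile normalization, for ZNF (348), ZBTB (37), clustered histone (35), RPL and RPS genes (58) and all measured genes (12819), with dotted lines at 2-fold. The ZNF and ZBTB curves lie to the left of all genes, the histone curve to the right, and the ribosomal protein curve rises steeply near 0.

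Several other genes that fell were highest on the 42 °C array. MMP3, the matrix protease stromelysin, had 168 at 44 °C against 1419 at 42 °C and 73.1 in the control, an 8.44-fold fall. CCNA1, a cyclin, had 45.6 at 44 °C against 317 at 42 °C and 47.6 in the control, a 6.95-fold fall. SNAPC4, a subunit of the complex that starts snRNA transcription, had 23.8 at 44 °C against 360 at 42 °C and 67.4 in the control, with its other probe set at -1.02. CAVIN2, a caveolar protein, was below the floor at 44 °C and at least 8.78-fold lower than the 188 at 42 °C. TXNIP, an arrestin-like protein that binds thioredoxin and limits glucose uptake, fell 2.87-fold, with 1197 at 44 °C against 3434 at 42 °C and 949 in the control. ARRDC4, its relative, fell 3.92-fold, with 110 at 44 °C against 432 at 42 °C and 194 in the control. Of the 4 genes on the list of TXNIP and arrestin-domain genes none rose and 2 fell, against 2.01% and 4.81% of all measured genes.

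Interferon-stimulated IFIT genes fell together. IFIT2 had 30.5 at 44 °C against 177 at 42 °C and 89.5 in the control, a 5.79-fold fall, IFIT1 fell 3.89-fold and IFIT3 3.26-fold. IFIT proteins bind foreign RNA. The other 9 of 12 measured interferon genes passed 2-fold in neither direction under all scalings, among them ISG15 (491 at 44 °C and 700 at 42 °C). In the NF-kB list LIF rose and none fell among 18. Over all measured genes 2.01% rose and 4.81% fell. CXCL8 (3149 at 44 °C and 3113 at 42 °C) was level, whereas CXCL2 (214 at 44 °C and 566 at 42 °C) and IL6 (107 at 44 °C and 254 at 42 °C) passed 2-fold lower as deposited and not after quantile normalization, at -0.96 and -0.79.

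Genes of the endoplasmic reticulum stress response included 2 falls and no rise among 18 measured (4.81% and 2.01% over all genes), with a median 0.48 below that of all genes after quantile normalization. DNAJC3, a cochaperone that restrains the kinase PERK, fell 3.50-fold, with 413 at 44 °C against 1448 at 42 °C and 505 in the control, and its 4 probe sets ranged from -2.41 to -1.81. SEL1L, the scaffold of the HRD1 disposal complex, fell 3.44-fold, with 392 at 44 °C against 1348 at 42 °C and 740 in the control. HSPA5, the main chaperone of that compartment, had 9788 at 44 °C and 14974 at 42 °C. SLC7A11, the cystine importer, fell 4.38-fold, with 139 at 44 °C against 610 at 42 °C and 421 in the control. ATF4 (3458 at 44 °C and 2176 at 42 °C) and DDIT3 (112 at 44 °C and 160 at 42 °C), core factors of the integrated stress response, did not pass under all scalings, ATF4 being 0.67 higher as deposited and 1.12 after the median shift. Their target CHAC1 was below the floor on both arrays.

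MDM2, the ubiquitin ligase that degrades p53, fell 3.51-fold, with 158 at 44 °C against 554 at 42 °C and 399 in the control, although its 5 probe sets ran from -2.33 to 0.62. CDKN1A (579 at 44 °C and 410 at 42 °C) and PMAIP1 (571 at 44 °C and 567 at 42 °C), both p53 targets, passed in neither direction. Among 17 measured p53 targets PLK3 rose and MDM2 fell. No member rose or fell in the pro-apoptotic list (10 measured) or the anti-apoptotic list (9 measured). With 2.01% of all measured genes rising and 4.81% falling, nothing is read from the counts in these 3 lists. MCL1, an anti-apoptotic protein with a short-lived message, had 2258 at 44 °C and 3877 at 42 °C, and its 6 probe sets ran from -1.70 to 0.34.

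The MIR205 host transcript had 47.3 at 44 °C against 377 at 42 °C and 394 in the control, a 7.97-fold fall. VMP1, an autophagy gene whose locus also carries a microRNA, had 23.9 at 44 °C against 191 at 42 °C and 170 in the control, an 8.01-fold fall. For both, the 42 °C array lay near the control. PFKFB4, a regulator of glycolysis, fell 3.68-fold, with 31.0 at 44 °C against 114 at 42 °C. MTERF1, a mitochondrial termination factor, fell 7.13-fold, with 35.3 at 44 °C against 252 at 42 °C and 156 in the control. Of the 7 measured mitochondrially encoded genes, COX3 and ND6 fell, where 4.81% of all measured genes fell. COX3, with 1 probe set above the floor, had 230 at 44 °C against 1157 at 42 °C and 1987 in the control. The far brighter COX1 had 15948 at 44 °C, 16924 at 42 °C and 17893 in the control. ND2, ND4, COX2 and ATP6 also neither rose nor fell. ND6, the sole protein gene on the light strand, had 115 at 44 °C against 454 at 42 °C and 366 in the control.

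No member passed the threshold among 58 RPL and RPS genes, 26 proteasome subunits, 23 nuclear genes of oxidative phosphorylation, 19 splicing factors and 7 metallothioneins. With 2.01% of all genes rising and 4.81% falling, few calls would fall in lists of these sizes, and nothing particular to them is read from the counts. Of 76 genes whose symbols begin with MRPL or MRPS, 1 fell. Cell cycle lists leaned in opposite directions without members past the threshold other than CCNE1. Of 19 measured genes of G1/S and DNA replication, 18 were above 0 after quantile normalization (55.9% of all measured genes) and the median stood 0.38 above all genes. Of 20 genes of G2/M and mitosis, 4 were above 0 and the median stood 0.58 below. For example CDC45, a replication helicase factor, had 1503 at 44 °C and 1009 at 42 °C, and PLK1, the mitotic kinase, had 323 at 44 °C and 780 at 42 °C. Both lists kept their direction relative to all genes under each of the 3 scalings.

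**Figure D4:**
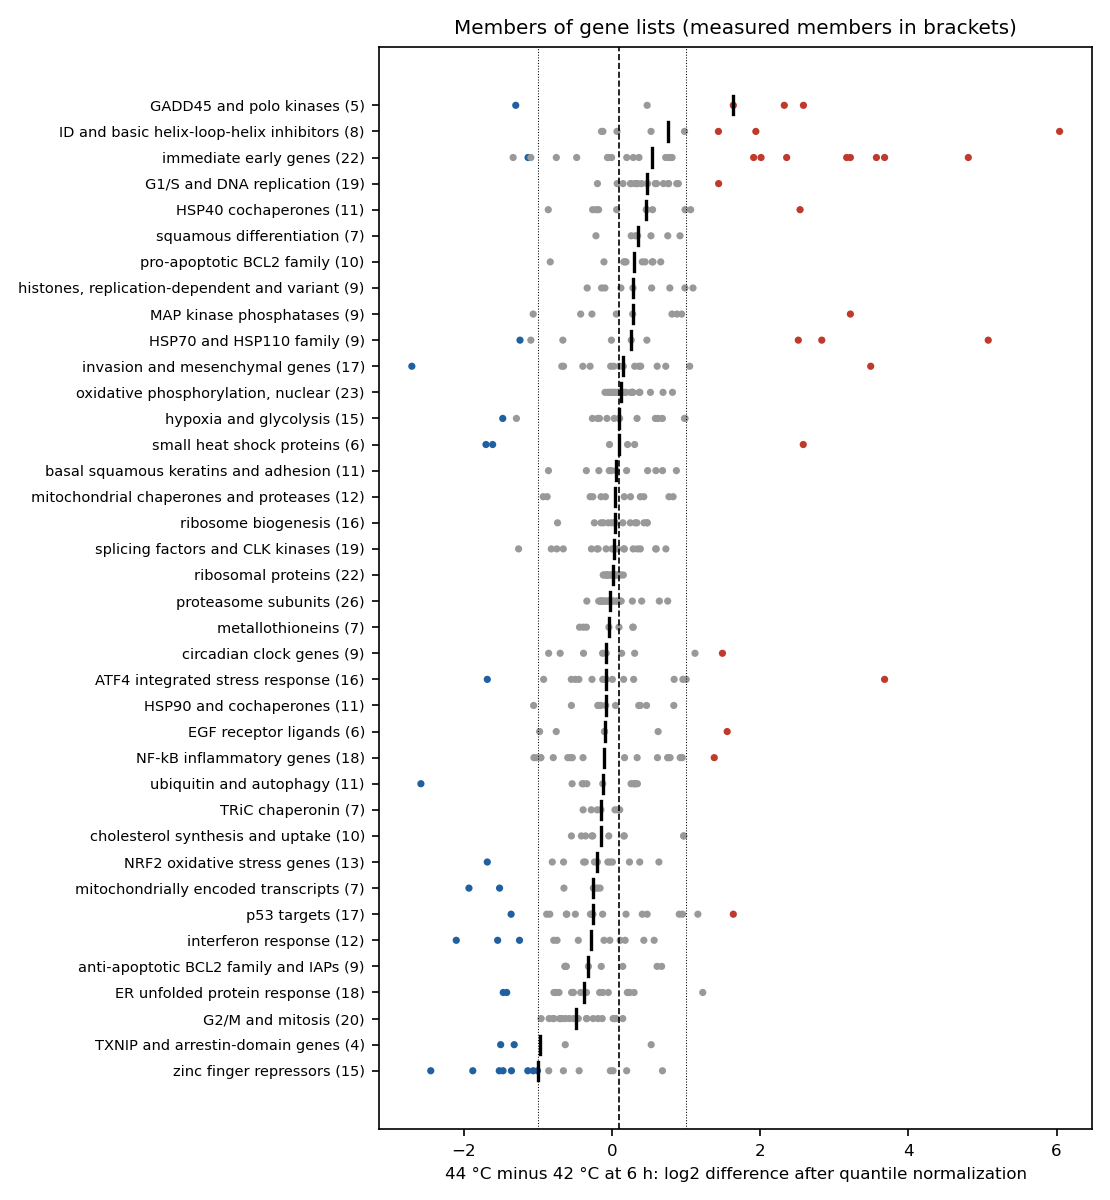
Each row is a gene list with its number of measured members in brackets, each point is 1 member at its 44 °C minus 42 °C difference at 6 h (log2 units after quantile normalization), and the bar is the list's median. Red members rose and blue members fell under all 3 scalings, the dashed line is the median of all measured genes and dotted lines are 2-fold. The list labelled zinc finger repressors, with 8 falls among 15, has the lowest median of the lists drawn. Its members are ZNF genes chosen with earlier results of these data known, and whether each is a repressor was not tested. Of all measured ZNF genes 29.3% fell.

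Genes that rose and genes that fell differed in several properties, given here without a test. The median genomic length was 14661 bases for genes that rose, 33036.5 for genes that fell and 27939.5 for all measured genes. Long non-coding RNAs made up 12.5% of the genes that rose, 3.90% of those that fell and 5.79% of all. The median intensity on the 42 °C array was 26.8 for genes that rose and 311 for genes that fell, so that the median gene that rose was near the floor at 42 °C. Of the 102 genes that rose and have at least 2 probe sets above the floor, 59 (57.8%) had all of them on the same side as deposited, and 65.7% after quantile normalization. Of the 362 such genes that fell, 313 (86.5%) did as deposited and 81.2% after quantile normalization.

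The control level lay between the heated levels for 192 of the 258 genes that rose and for 540 of the 616 that fell, against 6568 of the 12819 measured genes. Genes picked for a wide gap between the temperatures bracket a further level more often by that choice, so nothing is read from the excess. For genes that rose, the median difference from the control after quantile normalization was 0.76 at 44 °C and -0.72 at 42 °C. For genes that fell, it was -0.82 at 44 °C and 0.53 at 42 °C. Both differences use the same control array. The control was nearer to the 42 °C level for 132 genes that rose (51.2%) and for 393 that fell (63.8%), against 54.4% of all measured genes.

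The pairs at 0 h and 12 h share no array with the 6 h pair. After quantile normalization, 72.1% of the genes that rose at 6 h were above 0 at 0 h (54.0% of all measured genes) and 81.4% at 12 h (47.5% of all). Of the genes that fell, 65.4% were below 0 at 0 h (40.2% of all) and 87.5% at 12 h (47.5% of all). The 0 h side of this depends on the scaling. As deposited, 88% of the genes that rose were above 0 at 0 h (82.7% of all). Of the genes that fell, 36.9% were below 0 at 0 h as deposited (13.4% of all) and 62.0% above. At 12 h, 93.7% were below 0 as deposited (71.9% of all). Across the 12819 genes the differences at 6 h had a correlation of 0.30 with those at 0 h and 0.55 with those at 12 h. These are correlations across genes, which are not independent replicates, and the same probe set stands for a gene at each time.

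ID2 was higher at 44 °C at each time, with 1054, 2996 and 2892 at 0, 6 and 12 h after 44 °C, against 121, 50.1 and 11.1 at 42 °C. HSPA6 was lower at 44 °C at 0 h and higher later, with 5143, 7596 and 8788 at 44 °C, against 12566, 262 and 18.9 at 42 °C. FOS had 471, 848 and 804 at 44 °C, against 130, 33.5 and 13.3 at 42 °C. At 42 °C these genes were highest at 0 h and lowest at 12 h, while at 44 °C each was higher at 12 h than at 0 h. EGR1 had 1898, 3849 and 4594 at 44 °C, against 867, 521 and 555 at 42 °C. HSPB1 was lower at 44 °C throughout, with 2664, 2052 and 3139 at 44 °C, against 7209, 7115 and 6176 at 42 °C. MMP3 had 85.2, 168 and 422 at 44 °C, against 806, 1419 and 258 at 42 °C, so its order between temperatures was the opposite at 12 h. ZNF267 had 97.7, 44.9 and 59.5 at 44 °C, against 118, 334 and 231 at 42 °C.

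**Figure D5:**
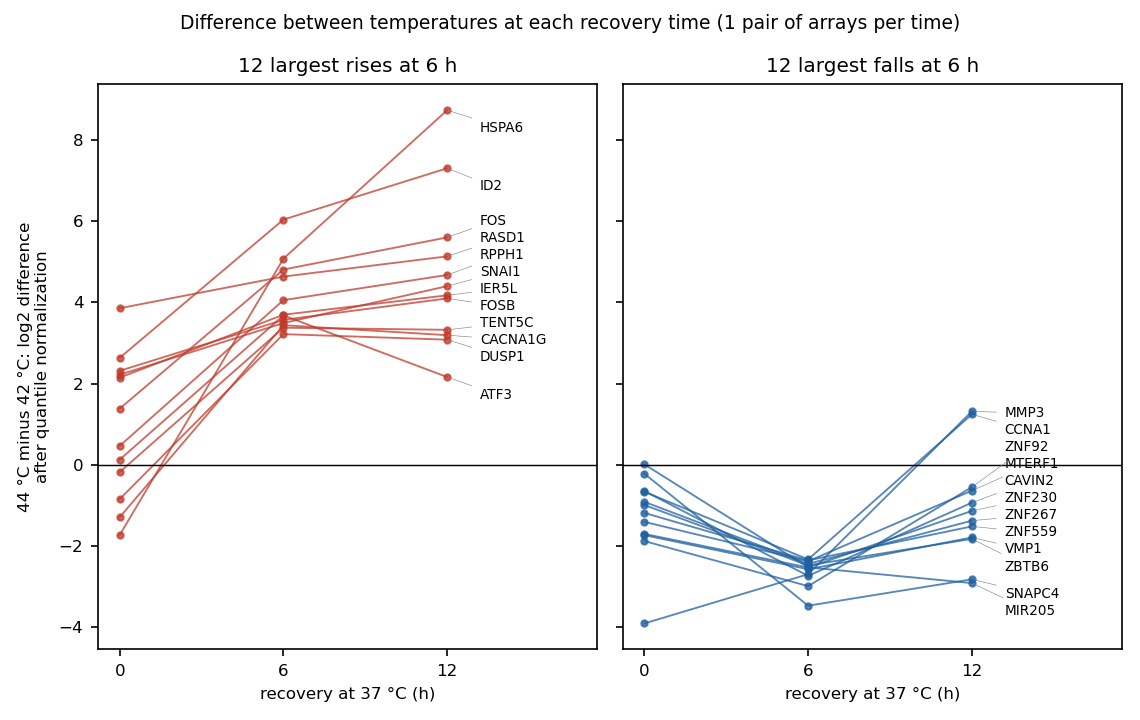
The 44 °C minus 42 °C difference in log2 units after quantile normalization is plotted against hours of recovery at 37 °C for the 12 largest rises (left) and the 12 largest falls (right) at 6 h, 1 pair of arrays per time. All 12 rises are above 0 at 12 h, and among the falls MMP3 and CCNA1 are above 0 at 12 h.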

How the data were processed

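RNA of 7 groups of HSC-3 cells, 1 array each, was read as intensity values on a linear scale, 1 per probe set, as the authors deposited them. The algorithm and the scaling behind them are not given in the sources used here. Of 54675 probe sets, 41097 list 1 gene in the platform annotation, 1801 list several and 11777 are not listed there. Where a gene has several such probe sets, the one brightest on average over the arrays stands for it. Symbols were updated through RefSeq. Differences are 44 °C minus 42 °C in log2 units, with values under the floor set to it. With 1 array a side no test was run, and the counting step was tested on simulated data. The members and the 42 gene lists were chosen with earlier results of these data known. The 71 genes named by rule are the 12 largest rises and falls among bright genes whose probe sets agree in sign, up to 4 members per list past 2-fold under all scalings, and 26 fixed genes. HSPA8, a fixed gene, has no single-gene probe set, and neither have HSPA1A and HSPA1B. Genes named beyond these are examples chosen after their values were seen. Scalings, floors, probe set rules, thresholds and one centring added later were tried as alternatives. Upstream windows are RefSeq sequences. Python 3.11.15, numpy 2.4.6, pandas 2.3.3 and matplotlib 3.10.9 were used.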

Additional observations from a re-analysis of the deposited data

Results flagged for a closer look

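For 3 chaperones the difference between the temperatures changed sign between recovery times, and that change was not tested. HSPA6 was -1.29 log2 units at 0 h and 4.86 at 6 h, and HSPA1L was -2.60 at 0 h and 2.51 at 6 h. HSPB8 was -2.06 at 6 h and 1.70 at 12 h. Probe sets outside the gene table also held differences past 2-fold under all 3 scalings. Of 1164 that list several genes, 17 rose and 63 fell, and of 3806 with no listed gene, 119 rose and 182 fell. The shares that rose and fell were 1.46% and 5.41% for several genes, 3.13% and 4.78% for none listed, and 2.00% and 5.39% for single-gene probe sets. The 5′ control probe set for 28S rRNA was 4.54 log2 units higher at 44 °C than at 42 °C, while its M and 3′ probe sets read 1.04 and 0.88, the 3′ one with its 42 °C value under the floor.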

How the results depend on the processing

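As deposited, 258 genes were at least 2-fold higher at 44 °C and 1668 lower. Quantile normalization gave 628 and 711, and the median shift 851 and 620. A floor at a lower setting (0.5 times the pooled median) and no floor each gave 720 higher, and the lower setting gave 2123 lower. A floor at 2 times the pooled median, like bright genes only, gave 115 higher, and bright genes only gave 1442 lower. At 4-fold, 30 were higher and 131 lower. Centring on the 9 hybridisation controls, added after the data were seen, gave 157 higher. Counts of lower genes under that centring, with no floor and with the floor at 2 times the pooled median are not given here. Causes were not tested beyond how each setting is built. No named gene that rose or fell, and no list whose median stood at least 0.5 from all genes, changed sign under any of these. With the mean of all probe sets, 21 named genes moved by more than the SD between probe sets of a gene and 49 did not. No paired analysis was possible because the 6 h comparison has 1 array a side and the labels give no replicate numbers, and the pairs at 0 h and 12 h are other recovery times rather than replicates of it. No replicate, and no measure of biological spread, limits every fold change, and intensities near the floor have no order.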
